A study of Mus musculus with 12 samples.

Results

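The guanylate-binding protein (GBP) genes *Gbp2*, *Gbp3*, *Gbp4*, *Gbp5*, *Gbp6*, *Gbp7*, *Gbp8* and *Gbp9* were followed in cerebral vessels of the mouse after an injection of lipopolysaccharide (LPS), the outer-membrane glycolipid of gram-negative bacteria. They were chosen by name as members of the Gbp family, and all 8 were found among the 54119 genes with RNA-seq counts and were among the 19150 genes that could be tested. The animals were wild type C57BL6 mice, 2 to 3 months old, that received 10 mg/kg LPS intraperitoneally and were studied after 15 min, 30 min or 4 h, or received PBS as control. Each group held 3 libraries, and each library was made from the pooled vessels of 1 male and 1 female mouse, so a difference between the sexes or between the animals of a pool could not be seen. The time at which the PBS animals were studied is not given in the sources used here.

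GBPs are large GTPases whose genes are switched on by interferons, in part through the transcription factor IRF1. The proteins assemble on the membranes of bacteria and of the vacuoles that hold parasites, and they bind bacterial LPS in the cytosol, which brings it to caspase-11, the sensor that starts non-canonical inflammasome signaling. In blood vessels, GBP expression is a known mark of endothelial cells exposed to inflammatory cytokines.

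The genes lie in 2 clusters in the GENCODE annotation of GRCm38. On the plus strand of chromosome 3, *Gbp5* (chr3:142493978-142522344), *Gbp7* (chr3:142530342-142550149), *Gbp3* (chr3:142560026-142573209) and *Gbp2* (chr3:142620602-142638008) follow each other, with *Gbp2b*, the gene of mouse GBP1, between the last pair. On the minus strand of chromosome 5 lie *Gbp8* (chr5:105014150-105139540), *Gbp9* (chr5:105077630-105139539), *Gbp4* (chr5:105115767-105139586) and *Gbp6* (chr5:105270702-105293698), together with *Gbp10* and *Gbp11*. The annotated spans of *Gbp8*, *Gbp9* and *Gbp4* overlap on the same strand.

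RefSeq start-site windows of GRCm38.p6, 250 bases before to 50 bases after a start, were at hand for 4 of the 8 genes, the members of the chromosome 3 cluster, and for *Gbp2b*. They are printed because the genes of this cluster differed from each other in when and how much they changed. Whether the motifs bear on these differences was not tested. The letters GAAANNGAAA, the core of the interferon-stimulated response element (ISRE), were searched on both strands, as were TTCNNNGAA, the gamma-activated site (GAS), and the NF-κB consensus. Capitals mark the ISRE cores and, in *Gbp5*, the NF-κB consensus. No pair of matches to different motifs overlapped in these windows. The windows span chr3:142620413-142620712 for *Gbp2*, chr3:142496684-142496983 for *Gbp5*, chr3:142559794-142560093 for *Gbp3*, chr3:142530086-142530385 for *Gbp7* and chr3:142594597-142594896 for *Gbp2b*, all on the plus strand and written 5′ to 3′:
Gbp2: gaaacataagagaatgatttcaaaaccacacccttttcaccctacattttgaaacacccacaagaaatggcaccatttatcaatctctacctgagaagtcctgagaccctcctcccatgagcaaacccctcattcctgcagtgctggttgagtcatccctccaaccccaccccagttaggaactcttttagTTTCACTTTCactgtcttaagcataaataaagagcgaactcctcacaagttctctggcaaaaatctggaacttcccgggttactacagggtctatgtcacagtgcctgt
Gbp5: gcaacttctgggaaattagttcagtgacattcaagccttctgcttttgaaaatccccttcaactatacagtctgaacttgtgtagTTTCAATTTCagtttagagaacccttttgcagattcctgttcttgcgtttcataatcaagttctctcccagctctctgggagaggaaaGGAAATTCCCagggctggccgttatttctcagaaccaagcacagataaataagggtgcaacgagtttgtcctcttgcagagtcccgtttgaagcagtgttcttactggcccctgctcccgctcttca
Gbp3: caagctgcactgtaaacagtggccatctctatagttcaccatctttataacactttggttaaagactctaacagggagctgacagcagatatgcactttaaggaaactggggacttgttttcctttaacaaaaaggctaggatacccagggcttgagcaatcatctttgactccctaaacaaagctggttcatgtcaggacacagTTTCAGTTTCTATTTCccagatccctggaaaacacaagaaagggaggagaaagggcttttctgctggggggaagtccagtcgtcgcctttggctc
Gbp7: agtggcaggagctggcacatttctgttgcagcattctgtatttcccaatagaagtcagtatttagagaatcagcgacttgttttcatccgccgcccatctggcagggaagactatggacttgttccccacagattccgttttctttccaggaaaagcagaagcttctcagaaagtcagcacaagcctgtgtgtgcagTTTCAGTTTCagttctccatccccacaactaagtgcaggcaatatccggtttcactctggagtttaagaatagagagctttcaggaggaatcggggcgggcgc
Gbp2b: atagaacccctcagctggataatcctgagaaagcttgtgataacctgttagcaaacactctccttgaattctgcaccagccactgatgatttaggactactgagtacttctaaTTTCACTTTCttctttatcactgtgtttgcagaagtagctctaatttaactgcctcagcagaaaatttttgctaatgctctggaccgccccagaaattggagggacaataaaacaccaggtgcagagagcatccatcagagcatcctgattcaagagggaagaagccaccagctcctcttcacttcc

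An ISRE core stood in each of these windows, on the minus strand, whereas 3.44% of the 32851 windows of all genes held one. Its match began 59 bases before the start in *Gbp2*, 165 in *Gbp5*, 53 in *Gbp7*, and 45 and 39 in *Gbp3*, where 2 matches overlapped. A second RefSeq window of *Gbp3* (chr3:142560106-142560405) held none of the 3 motifs. GAS matches were found in *Gbp5* and in *Gbp7*, 2 in each, and in 8.3% of all windows. *Gbp5* alone among the 5 genes held the NF-κB consensus, GGAAATTCCC, 77 bases before its start, as did 4.51% of all windows. These are matches of letters and show no binding.

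The libraries held 18309177 to 25882028 assigned fragments. Endothelial markers were abundant, with a summed level of 5 markers from 5849 to 9567 counts-per-million (CPM) in the 12 libraries. CPM here are scaled with edgeR's trimmed mean of M values (TMM), whose factors were 1.16 to 1.17 in PBS libraries and 0.715 to 0.718 in 4 h libraries, and they serve to compare 1 gene between groups. In bulk tissue, fewer cells of a type and less RNA per cell cannot be told apart. Changes were tested with edgeR's quasi-likelihood fit against a 1.5-fold limit, and a gene was called at an adjusted p below 0.05 over all genes tested.

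At 4 h after LPS, all 8 GBP genes were higher than in PBS vessels, by 13.4-fold to 69.3-fold. The called share of all genes in that direction was 19.1%, and the median log2 change was 4.5 over the 8 genes against -0.0098 over all genes tested. *Gbp6*, *Gbp2* and *Gbp5* rose the most, and *Gbp9*, *Gbp7* and *Gbp8* the least. In all 8 genes every 4 h library was above every PBS library, as in 35.9% of all genes tested.

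*Gbp2*, which coats pathogen vacuoles and promotes their rupture, was at 72.4, 64.3 and 74.9 CPM in the PBS libraries and at 4431, 4537 and 4466 CPM at 4 h. The log2 fold change was 5.99 ± 0.056 (SE, n = 3 per group, edgeR adjusted p = 3.57e-28), or 63.5-fold. Every 4 h library of *Gbp2* thus stood far above every other library, and the spread at 4 h was 1.21% of the mean. *Gbp5*, a GBP that has been linked to the NLRP3 inflammasome, went from 75, 70.4 and 72.4 CPM to 4221, 4250.2 and 4191 CPM. Its log2 fold change was 5.86 ± 0.047 (edgeR adjusted p = 2.19e-29). *Gbp2* and *Gbp5*, at the ends of the chromosome 3 cluster, had the largest changes of its 4 members, and *Gbp7* and *Gbp3*, which lie between them, smaller ones. *Gbp3* was at 97.7, 96.1 and 96.7 CPM in PBS and at 2252, 2264 and 2271 CPM at 4 h, a log2 fold change of 4.55 ± 0.036 (edgeR adjusted p = 2.8e-29). *Gbp7*, described as a recruiter of the NADPH oxidase and of autophagy proteins to bacteria, went from 76.4, 83.5 and 80.7 CPM to 1106, 1128 and 1089 CPM, a log2 fold change of 3.79 ± 0.050 (edgeR adjusted p = 5.65e-25).

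In the chromosome 5 cluster, *Gbp6* had the largest change. Its level was 33.7, 36.5 and 37.8 CPM in PBS and 2462, 2551 and 2478 CPM at 4 h, a log2 fold change of 6.11 ± 0.067 (edgeR adjusted p = 5.26e-27). *Gbp4* was at 128, 130 and 132 CPM in PBS and at 2771, 2933 and 2821 CPM at 4 h, with a log2 fold change of 4.45 ± 0.052 (edgeR adjusted p = 3.12e-26). The 4 h libraries of both genes were well apart from their PBS range. *Gbp9* went from 97.5, 107 and 104 CPM to 1348, 1418 and 1370.0 CPM, a log2 fold change of 3.74 ± 0.035 (edgeR adjusted p = 7.68e-28). *Gbp8* was at 7.27, 7.29 and 6.99 CPM in PBS and 99.8, 103 and 98.9 CPM at 4 h, and its log2 fold change was 3.81 ± 0.077 (edgeR adjusted p = 2.48e-21). The confidence intervals of the *Gbp8*, *Gbp9* and *Gbp7* changes overlapped, so no order among these 3 genes can be given, and the interval of *Gbp6* (5.98 to 6.25) overlapped that of *Gbp2* (5.88 to 6.10).

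**Figure D1:**
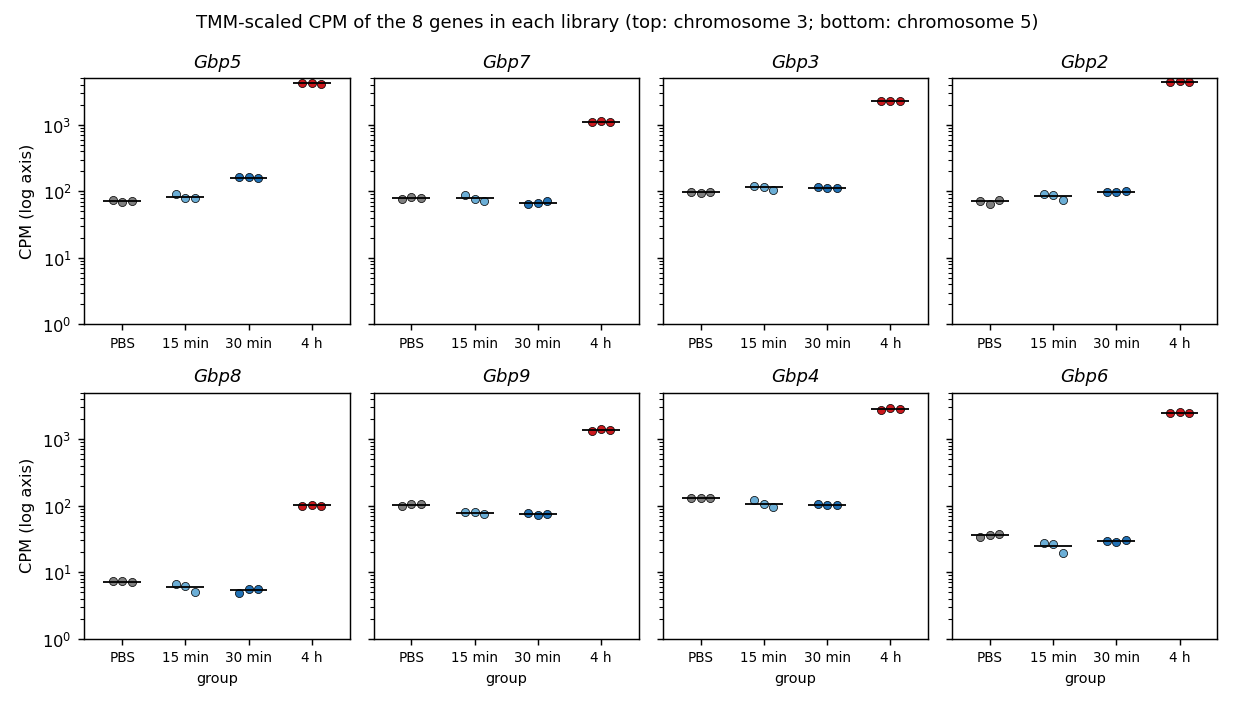
TMM-scaled CPM (log axis) of each GBP gene in the 12 libraries, by group, with points for libraries and a line for the mean of 3. All 4 h libraries stand above all others in each of the 8 panels, and *Gbp5* is the gene whose 30 min libraries (157 to 165 CPM) also stand clear of PBS (70.4 to 75 CPM) by more than the 1.5-fold limit.

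Marker genes of other cell types moved at the same time. All 6 neutrophil markers that could be tested, of 7 listed, were called higher at 4 h, and the summed level of the list was 4.72 to 6.49 CPM in PBS and 200.4 to 208 CPM at 4 h. *Ly6g*, the defining neutrophil marker, had no fragment in PBS and a mean of 0.297 CPM at 4 h. Monocyte markers summed to 38.5 to 47.5 CPM in PBS and 114 to 121 CPM at 4 h, with 2 of 3 called higher, and the T and NK cell list summed to 2.2 to 3.31 CPM in these groups, with *Cd3e* called lower. Astrocyte markers went from 210 to 236 CPM in PBS to 330 to 351 CPM at 4 h, and 2 of 4, *Gfap* and *Aqp4*, were called higher. Of 6 microglia and macrophage markers, *Mrc1* was called higher and *Cx3cr1* and *P2ry12* lower, and the list summed to 149 to 154 CPM in PBS and 155 to 158 CPM at 4 h. The 5 endothelial markers summed to 8164 to 8453 CPM in PBS and 5849 to 5902 CPM at 4 h, with 3 called lower and *Cdh5* called higher, and 1 of 4 pericyte markers was called lower. The part of these cells in the GBP changes was not tested.

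At 30 min, 1 of the 8 genes was called, and 3.8% of all genes tested were called higher. That gene was *Gbp5*, which rose 2.22-fold. Its 30 min libraries were at 165, 162 and 157 CPM against 75, 70.4 and 72.4 CPM in PBS, a log2 fold change of 1.15 ± 0.043 (edgeR adjusted p = 3.58e-11). DESeq2 with the same limit and limma called the same number of members, 1 each. Monocyte markers summed to 68.2 to 77.1 CPM at this time, against 63.1 to 68.8 CPM at 15 min and 38.5 to 47.5 CPM in PBS. Neutrophil markers summed to 5.81 to 8.06 CPM at 30 min. Most of the monocyte sum was *Ly6c2*, which was called higher, at a mean of 71.4 CPM against 38.9 CPM in PBS. *Ccr2* went from 2.99 to 1.31 CPM and *Plac8* from 0.592 to 0.754 CPM, and neither was called. Other markers called at 30 min were the endothelial *Slc2a1* and the astrocyte *Aqp4*, higher, and the endothelial *Cldn5* and the microglial *Cx3cr1*, lower. The part of these cells in the *Gbp5* change was not tested.

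The other 7 genes stayed within the 1.5-fold limit at 30 min but did not move together. *Gbp2* was at 98.0, 97.1 and 102 CPM at 30 min (log2 fold change 0.49 ± 0.053) and *Gbp3* at 115, 111 and 112 CPM (0.22 ± 0.036), and for both every 30 min library was above every PBS library. The log2 differences of the remaining 5 were negative, with *Gbp9* at -0.46 ± 0.037, *Gbp8* at -0.43 ± 0.10, *Gbp4* at -0.33 ± 0.051, *Gbp6* at -0.29 ± 0.075 and *Gbp7* at -0.24 ± 0.054, and for each of these every 30 min library lay below every PBS library. Their edgeR adjusted p against the limit was 1. Libraries of the 2 groups were thus separated in all 8 genes, 3 higher and 5 lower, where 23.7% of all genes tested were separated upward and 23% downward. With no fold limit, the quasi-likelihood test called all 8, again 3 higher and 5 lower, against 19.7% and 17.2% of all genes. Levels per length gave 1 different direction against PBS: the mean of *Gbp3* in transcripts-per-million (TPM), which take no account of the composition of a library, was 66.1 at 30 min and 70.6 in PBS.

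At 15 min no GBP gene was called by edgeR, while 4.25% of all genes tested were. None reached an unadjusted p below 0.05 against the 1.5-fold limit, and DESeq2 and limma called 0 of 8 as well. *Gbp6* came nearest to the limit, with 27.4, 26.3 and 19.2 CPM at 15 min against 33.7, 36.5 and 37.8 CPM in PBS, a log2 difference of -0.57 ± 0.076. Without the lowest of these libraries, replicate 3, the difference was -0.42. *Gbp9* was at 79.7, 78.9 and 75.6 CPM (-0.40 ± 0.036). *Gbp4* and *Gbp8* differed by -0.28 ± 0.050 and -0.26 ± 0.097. In these 4 genes, the members of the chromosome 5 cluster, no 15 min library reached the PBS range. The chromosome 3 members were level with PBS or slightly above it: *Gbp2* differed by 0.26 ± 0.053, *Gbp3* by 0.24 ± 0.035, *Gbp5* by 0.20 ± 0.044 and *Gbp7* by -0.025 ± 0.052, and 2 of them, *Gbp3* and *Gbp5*, had libraries that did not overlap those of PBS. Over all genes tested, 25.2% were separated upward and 24.1% downward in this comparison. With no fold limit, 7 of the 8 passed, 3 higher and 4 lower, against 20.4% and 18.2% of all genes. At this time the summed level of 3 smooth muscle markers was 1463 to 1485 CPM against 2305 to 2341 CPM in PBS, with 2 called lower. That of 4 astrocyte markers was 114 to 131 CPM against 210 to 236 CPM. Of these only *Gfap* was called, lower, with a mean of 77.9 CPM against 179 CPM in PBS. *Aldh1l1* went from 25.1 to 17.7 CPM, *S100b* from 15.7 to 16.1 CPM and *Aqp4* from 2.91 to 8.18 CPM. Monocyte markers summed to 63.1 to 68.8 CPM at 15 min against 38.5 to 47.5 CPM in PBS, with none called. Other markers called at 15 min were the endothelial *Slc2a1*, higher, and the endothelial *Cldn5* and the neutrophil *S100a9*, lower. The part of these cells in the small GBP differences was not tested.

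**Figure D2:**
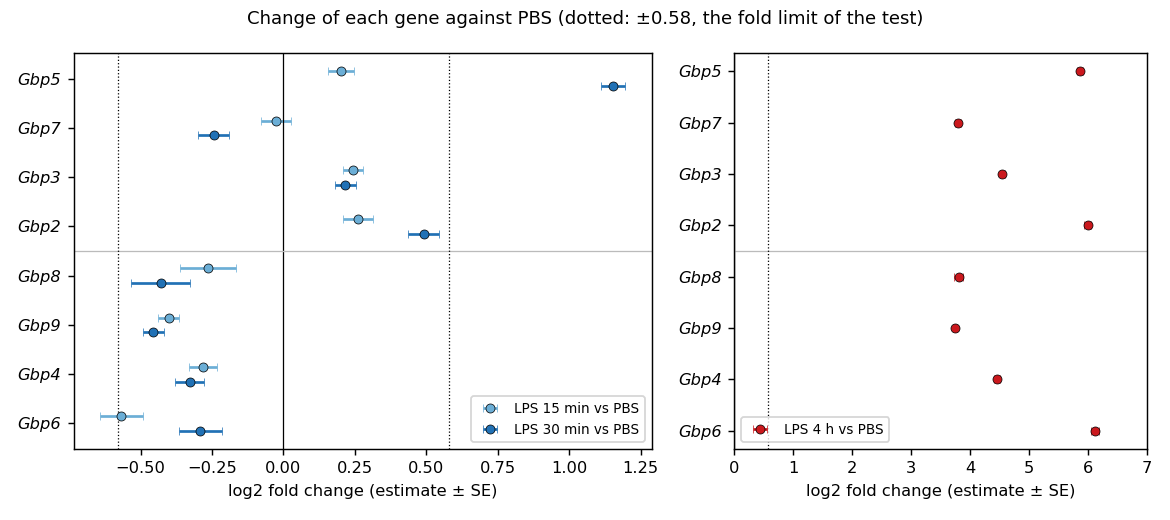
Log2 fold change of each gene against PBS, with its SE, at 15 min and 30 min (left) and at 4 h (right), on different axes. At 15 min and 30 min the genes of chromosome 5 (below the grey line) lie between -0.57 and -0.26 and those of chromosome 3 above -0.25, and at 4 h all 8 lie between 3.74 and 6.11.

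Taken as sums over each cluster, the fragments of the chromosome 3 genes differed from PBS by 0.17 ± 0.035 at 15 min and 0.46 ± 0.035 at 30 min on the log2 scale, and those of the chromosome 5 genes by -0.36 ± 0.041 and -0.37 ± 0.042. None of these sums was called. At 4 h the sums were higher by 5.23 ± 0.041 and 4.65 ± 0.046. The difference between the clusters was not tested, since the members of a cluster share sequence and are not replicates.

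Between 15 min and 30 min, *Gbp5* again was the single member called, and 2.77% of all genes tested were called higher. It stood at 92.8, 78.8 and 78.4 CPM at 15 min, so all 3 libraries at 30 min were above all 3 at 15 min, with a log2 fold change of 0.95 ± 0.043 (edgeR adjusted p = 1.01e-07). The remaining 7 differed by -0.22 to 0.27. Without overlap between the libraries, 3 members were higher (*Gbp2*, *Gbp5* and *Gbp6*, against 23.7% of all genes) and 1 was lower (*Gbp7*, against 23.9%), and with no fold limit the same numbers passed, 3 higher against 19.2% of all genes and 1 lower against 18.2%. In TPM the direction turned for 2 of the 3 that were higher, with means of 58.01 at 15 min and 55.8 at 30 min for *Gbp2* and of 10.6 and 10.4 for *Gbp6*. Between 30 min and 4 h all 8 rose, by 4.03 ± 0.052 in *Gbp7* to 6.41 ± 0.069 in *Gbp6*, against 17% of all genes tested called higher. Their libraries were separated as in 33.1% of all genes. *Gbp5*, the one member already called higher at 30 min, changed by 4.71 ± 0.044 in this interval and *Gbp2* by 5.50 ± 0.055.

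The order of the genes, given in TPM because only this scale takes transcript length into account, changed with LPS. In PBS vessels *Gbp3* led with 70.6 ± 1.56 TPM (SD, n = 3), followed by *Gbp4* (56.1 ± 0.13), *Gbp2* (49.0 ± 3.6), *Gbp5* (39.3 ± 1.4), *Gbp9* (37.2 ± 1.3), *Gbp7* (25.2 ± 1.5), *Gbp6* (15.7 ± 0.77) and *Gbp8* (3.68 ± 0.25). No neighbours in this order overlapped, although the lowest *Gbp5* library (38.5 TPM) was next to the highest *Gbp9* library (38.4 TPM). At 4 h *Gbp2* led with 1661 ± 11.8 TPM, ahead of *Gbp5* (1197 ± 17.9), *Gbp3* (809.7 ± 12.6), *Gbp4* (777 ± 19.8), *Gbp6* (591 ± 5.7), *Gbp9* (263 ± 4.8), *Gbp7* (184 ± 3.2) and *Gbp8* (27.9 ± 0.365), again with no overlap between neighbours. *Gbp2* and *Gbp5* thus moved from places 3 and 4 to places 1 and 2, and *Gbp6* passed *Gbp9* and *Gbp7*. The intermediate times were less clearly ordered: at 15 min *Gbp2* overlapped *Gbp4*, *Gbp4* overlapped *Gbp5*, and *Gbp9* overlapped *Gbp7*, and at 30 min the top was shared by *Gbp5* (69.5 ± 2.7) and *Gbp3* (66.1 ± 3.4), whose libraries overlapped.

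Together the 8 genes made up 294 to 299 TPM in PBS, 269 to 326 TPM at 15 min, 277 to 290.4 TPM at 30 min and 5456 to 5542 TPM at 4 h. This was 0.0297% of all transcripts in PBS and 0.551% at 4 h. *Gbp2* supplied 16.5% ± 1.1 of the family total in PBS and 30.1% ± 0.046 at 4 h, whereas *Gbp3* went from 23.8% ± 0.35 to 14.7% ± 0.22. The share of *Gbp6* went from 5.31% ± 0.29 to 10.7% ± 0.033, and that of *Gbp9* from 12.5% ± 0.55 to 4.78% ± 0.077 of the total. Among 54119 genes ranked by mean TPM, *Gbp2* moved from place 3041 in PBS to place 50 at 4 h, *Gbp5* from 3786 to 68, *Gbp6* from 7599 to 152 and *Gbp8* from 12830 to 3435.

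**Figure D3:**
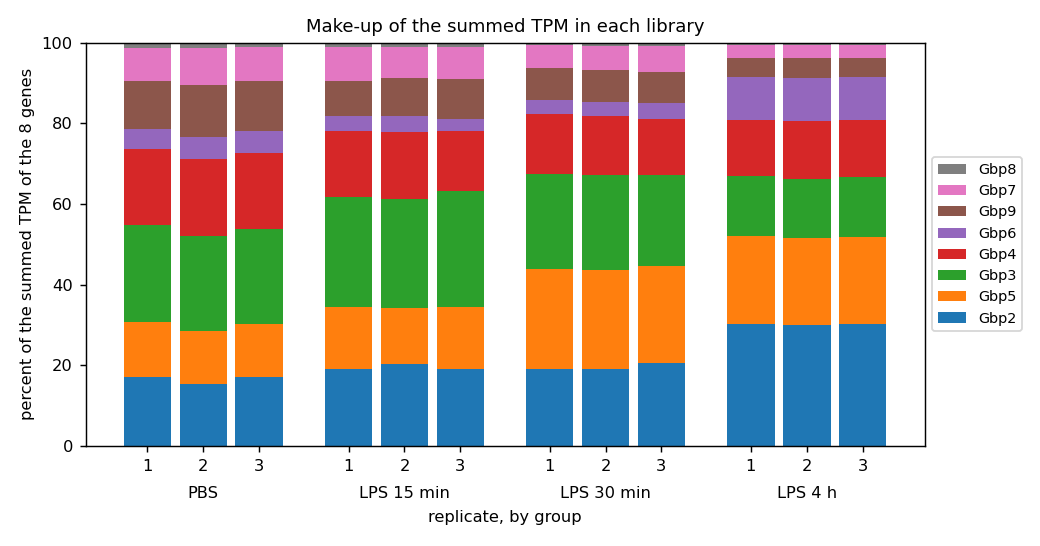
Percent of the summed TPM of the 8 genes that each gene supplied, 1 bar per library, by group. The 3 libraries of a group are alike, and at 4 h *Gbp2* (30.1%) and *Gbp5* (21.7%) hold the largest shares, while in PBS *Gbp3* (23.8%) and *Gbp4* (18.9%) do.

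The transcript estimates gave a further difference between the genes. Shares of transcripts within a gene are Salmon's estimates from reads that several transcripts can share, and they were not tested. How often such shares separate between groups was not counted over all genes. Nearly all of *Gbp2* came from its protein-coding transcript Gbp2-201 (at least 99.7% of the gene's TPM in each library), and *Gbp3* and *Gbp7* likewise came from protein-coding transcripts. In the chromosome 5 cluster other types were prominent. Transcripts annotated for nonsense-mediated decay (NMD) held 70.6% of *Gbp4* in PBS (67.7% to 72.4%) and 56.3% at 4 h (55.1% to 57.8%), while its protein-coding share was 27.4% (25.2% to 30.5%) and 42.9% (41.4% to 44.1%). Libraries of PBS and 4 h did not overlap in either share, and the 30 min libraries (37.3% to 38.6% protein-coding) lay between them. *Gbp6* was mostly NMD transcript in PBS (58.3% to 59.7%) and at 4 h (61.4% to 61.5%). *Gbp8* was mostly a retained-intron transcript, with 74.8% to 97.8% of its TPM in PBS and 89.99% to 92.8% at 4 h. Its protein-coding transcripts came to 0.403 TPM in PBS and 2.07 TPM at 4 h.

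*Gbp5* changed its make-up at 30 min, when it was first called against the 1.5-fold limit. Its NMD transcript Gbp5-202 held 7.73% to 10.4% of the gene's TPM in PBS and 8.13% to 10.4% at 15 min, then 14.9% to 17.3% at 30 min and 16% to 16.5% at 4 h. The share was higher in all libraries of the later times than in all libraries of the earlier ones, a separation not counted over other genes. The coding transcript Gbp5-201 still held most of the TPM, 88.9% in PBS and 81.6% at 4 h.

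**Figure D4:**
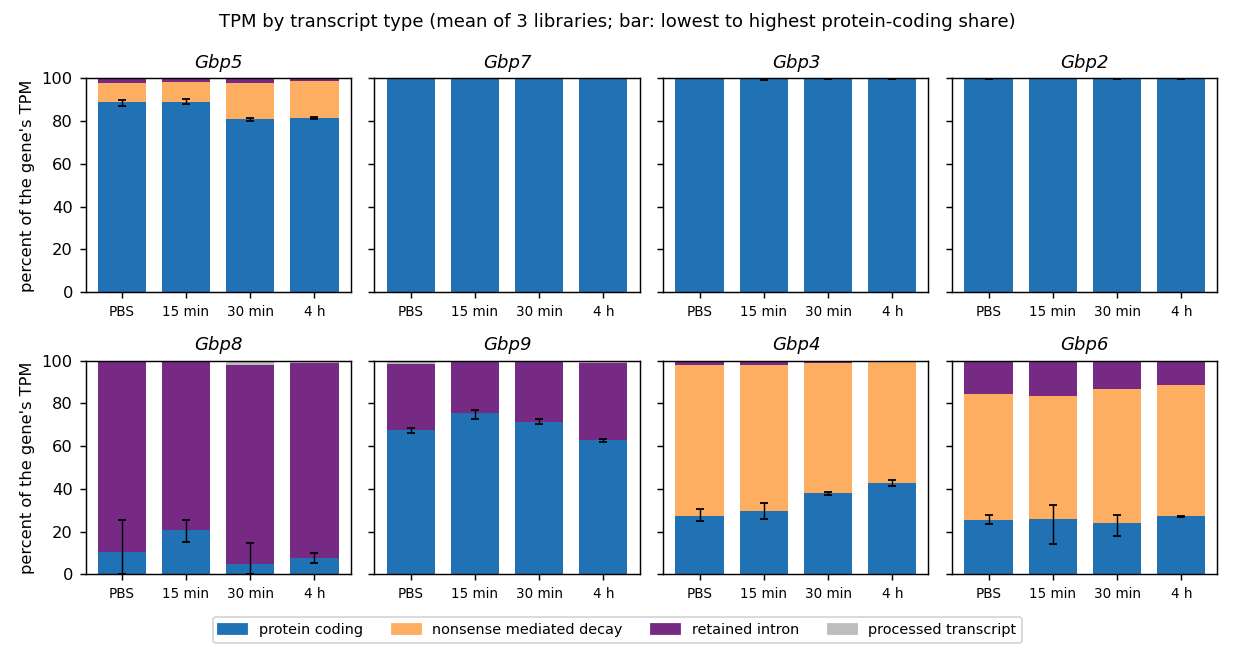
Share of each gene's TPM by annotated transcript type and group, as the mean of 3 libraries, with a black bar from the lowest to the highest protein-coding share. *Gbp2*, *Gbp3* and *Gbp7* are protein-coding throughout, the protein-coding share of *Gbp4* goes from 27.4% in PBS to 42.9% at 4 h, and that of *Gbp5* from 88.9% to 81.6%.

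Some members share sequence with their neighbours, which bears on how reads could be assigned. For *Gbp6*, 74.3% of the distinct stretches of 31 bases in its transcripts also occurred in transcripts of other genes, 67.8% in the gene model Gm43302, which spans *Gbp10* and *Gbp6* (chr5:105214907-105293695). The coding sequences of *Gbp6* and *Gbp10* were 98.4% identical. The first 150 coding bases of both, from Gbp6-201 (chr5:105290871-105291020) and Gbp10-201 (chr5:105235985-105236134), minus strand of GRCm38.p6, show how few bases tell them apart, with the 3 differing bases in capitals:
Gbp6: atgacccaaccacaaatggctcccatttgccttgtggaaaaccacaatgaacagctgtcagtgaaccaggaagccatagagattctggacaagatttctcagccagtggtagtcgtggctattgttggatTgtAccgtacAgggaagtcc
Gbp10: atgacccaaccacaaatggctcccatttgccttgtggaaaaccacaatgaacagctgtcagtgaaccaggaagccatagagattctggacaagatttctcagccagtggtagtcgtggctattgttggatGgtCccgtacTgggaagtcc

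*Gbp8* shared 31.1% of its 31-base stretches with other genes, *Gbp9* 18.3%, *Gbp4* 14.9% and *Gbp7* 14.7%, and *Gbp2*, *Gbp3* and *Gbp5* 3.1% to 5.64%. In coding sequence *Gbp6* and *Gbp9* were 89.7% identical, *Gbp4* and *Gbp6* 87.2%, *Gbp3* and *Gbp7* 76.3% and *Gbp2* and *Gbp5* 67%. *Gbp10* itself was at 2.1, 1.18 and 2.25 CPM in PBS and at 127, 127 and 129 CPM at 4 h (log2 fold change 6.13 ± 0.14, edgeR adjusted p = 7.34e-21). *Gbp11*, annotated as a polymorphic pseudogene, was at 0.599, 0.337 and 0.649 CPM and then at 31.3, 32.0 and 34.8 CPM (5.95 ± 0.23, edgeR adjusted p = 5.71e-16). Fragments of *Gbp6*, *Gbp10* and Gm43302 taken as 1 gene gave 6.17 ± 0.079 at 4 h, near the 6.11 of *Gbp6* alone.

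*Gbp2b* stood apart from its family. All 3 libraries of a group together held 1 fragment in PBS, 0 at 15 min, 2 at 30 min and 1 at 4 h, so it was not tested. A count of 0 in the 15 min libraries allows a level of up to 0.0377 CPM. Its RefSeq window carries the same 10 letters, TTTCACTTTC, as that of *Gbp2*, and its coding sequence was 82.5% identical to that of *Gbp2*, with which it shared 4.15% of its 31-base stretches.

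Genes around the 2 clusters changed in part. The 5 nearest tested protein-coding genes on either side of each cluster and Gm43302 made 21 genes in all. At 4 h 8 of them, Gm43302 among these, were called higher and 1 lower, with a median log2 change of 0.53. Of all genes tested, 19.1% were called higher and 33% in either direction. At 15 min none was called by edgeR (1 at an unadjusted p below 0.05), where 4.25% of all genes were called. At 30 min 1 was called, lower. At that time 3.8% of all genes were called higher, which was 82.4% of all calls. The gene model Gm43302 (7.23 ± 0.35), which shares its sequence with *Gbp6*, and *Dmp1*, a matrix phosphoprotein gene on the *Gbp8* side of the chromosome 5 cluster (4.78 ± 0.080, from 4.5 ± 0.56 to 124 CPM), rose by values within or above the members' range. *Abcg3*, an ABC transporter gene next to *Gbp8*, fell by 3.02 ± 0.26 on the log2 scale (edgeR adjusted p = 6.46e-09), from a mean of 8.46 CPM in PBS to 1.06 CPM at 4 h, and *Lrrc8d*, a subunit gene of volume-regulated anion channels, rose by 1.36 ± 0.065. On chromosome 3 the neighbours at either end, *Pdlim5* and *Kyat3*, rose by 1.09 ± 0.031 and 1.00 ± 0.19.

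**Figure D5:**
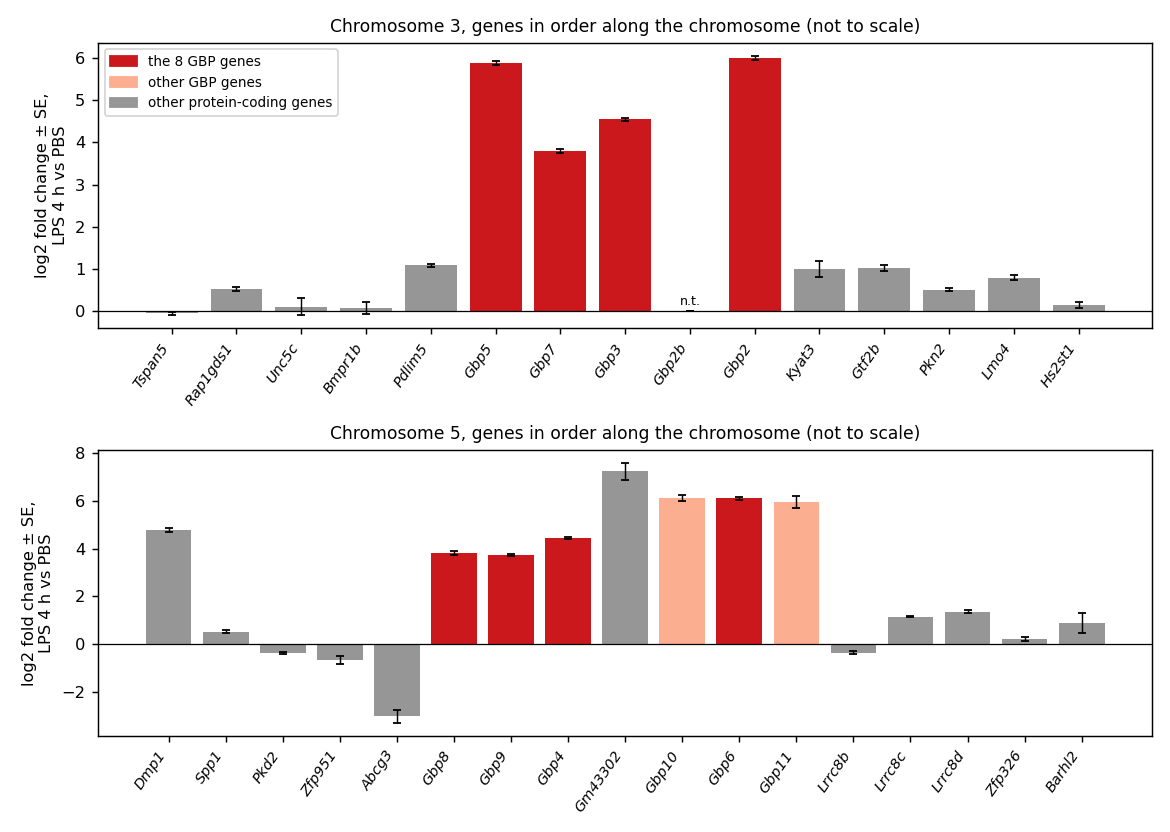
Log2 fold change with SE at 4 h against PBS of the GBP genes and the protein-coding genes around them, in chromosomal order and not to scale (n.t., not tested). The GBP genes tested stand between 3.74 and 6.13, and of the other genes *Dmp1* (4.78) reaches that height, while *Abcg3* is lower by 3.02. The gene model Gm43302 (7.23), drawn with the other genes, shares 95.7% of its 31-base stretches with *Gbp6*.

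Other interferon-inducible GTPases rose with the GBPs at 4 h. This list holds the remaining GBP genes, the immunity-related GTPases, the Mx proteins and the very large inducible GTPases, and all 18 genes of it that could be tested, of 19, were called higher, against 19.1% of all genes, with a median log2 change of 4.88. The largest changes were those of *Mx1*, an antiviral dynamin-like GTPase (8.60, from 1.68 to 650.4 CPM), *Mx2* (6.34), *Gbp10* (6.13) and *Gm5431* (6.12). Before 4 h few passed the test: at 30 min *Tgtp1* (1.10 ± 0.089) and *Tgtp2* (0.81 ± 0.083), T cell-specific GTPases, were called higher, 2 of 18 where 3.8% of all genes were. At 15 min 1 of 18 was called, *F830016B08Rik*, which was lower, at 1.3 CPM in PBS and 0.477 CPM at 15 min, and this share is near the 4.25% of all genes called in either direction. That call was lost with DESeq2, with limma, in the fit on 2 groups, and without PBS replicate 3 or 15 min replicate 2. At 30 min 1 gene of the list in place of 2 was called with DESeq2, with limma, and when any of the PBS libraries or replicate 1 or 3 of 30 min was left out.

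Interferon signaling genes changed in part. Of 19 tested, 13 were called higher and 1 lower at 4 h, where 19.1% of all genes were called higher and 33% in either direction, with a median log2 change of 2.39 over the list. *Irf1*, the transcription factor that acts on ISREs, was the single one called at 30 min, against 3.8% of all genes called higher (2.80 ± 0.029, edgeR adjusted p = 6.14e-26), with 78.4 ± 1.9 CPM in PBS, 106 ± 3.5 at 15 min, 547 ± 5.1 at 30 min and 805 at 4 h. *Nlrc5*, the transactivator of MHC class I genes, rose by 4.99 ± 0.044 and *Socs1*, an inhibitor of JAK signaling, by 4.44 ± 0.085. *Ciita*, the transactivator of MHC class II genes, fell by 1.31 ± 0.33 (edgeR adjusted p = 0.0167). *Il12b* had 0 fragments in the 3 PBS libraries and 461 in the 4 h libraries, at least 297-fold higher against a floor of 3 fragments over the group, and *Il27* had 3 and 284.

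The interferon genes themselves were close to the limit of detection. *Ifng* had 0 fragments in all PBS libraries, 4 at 15 min, 10 at 30 min and 19 at 4 h, and *Ifnb1* had 0, 0, 1 and 4. Neither could be tested, and a count of 0 over the PBS libraries allows a level of up to 0.0364 CPM.

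A list of 20 genes held the LPS receptor and its adaptors, genes of cytosolic sensing and inflammasomes, and prenyl transferase genes. At 4 h 13 of them were called higher and 2 lower, with a median log2 change of 1.13. Of all genes, 19.1% were called higher at that time and 33% in either direction. At 30 min 4 of the 20 were called higher, against 3.8% of all genes. *Cd14*, the LPS co-receptor, was already called at 30 min (4.16 ± 0.070) and rose by 8.31 at 4 h. *Casp4*, the mouse gene of caspase-11, was at 4.96 ± 0.97 CPM in PBS, 3.65 ± 1.1 at 15 min, 10.2 ± 0.75 at 30 min and 343 at 4 h, so it was called at 30 min (1.05 ± 0.13, edgeR adjusted p = 0.00565) and rose by 6.12 ± 0.091 at 4 h. *Il1b* was the single gene of the 20 called at 15 min (2.46 ± 0.23), a share near the 4.25% of all genes called then in either direction, and it changed by 8.15 at 4 h, and *Nlrp3* rose by 2.42 ± 0.19 at 30 min and 5.21 ± 0.18 at 4 h. *Tlr4*, the LPS receptor, rose by 2.73 ± 0.12 at 4 h. The prenyl transferase subunit genes *Fnta* and *Fntb*, whose enzyme adds the farnesyl anchor of CaaX proteins, fell by 0.69 ± 0.053 and 1.26 ± 0.11.

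The genes most like *Gbp2* in their 3 log2 fold changes against PBS, by Euclidean distance over the 14578 genes whose count averaged 50 or more, were *Gzmb* (distance 0.203), *Tfpi2* (0.261), *Isg20* (0.297), *Pde4b* (0.335) and *Ifit3* (0.395). *Gzmb*, the granzyme B gene, changed by 0.23, 0.32 and 6.09 at the 3 times. Nearest to the median of the 8 genes were *Apol9a* (distance 0.10), *Ifi44* (0.21), *Phf11d* (0.21), *Rnf213* (0.29) and *Ifih1* (0.29). *Apol9a* was at -0.15, -0.23 and 4.59, where the median of the members was -0.14, -0.27 and 4.5. The 3 changes share the same PBS libraries, and likeness was described over 4 groups without a test.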

How the data were processed

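Cerebral vessels were isolated from perfused forebrains by homogenization, and their RNA was amplified with SMART-Seq v4 and Nextera XT, which do not mark the strand. The authors quantified transcripts with Salmon 1.2.1 (GRCm38.p6) and deposited estimated counts and TPM per transcript and library. They also deposited a table of DESeq2-normalized signal per gene, whose 12 columns each correlated best with the matching library.

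Estimated counts were summed to genes with GENCODE M21 (139852 of 140948 transcripts joined, 0.482% to 0.85% of fragments lost) and rounded. Genes were filtered with filterByExpr (minimum count 10, total 15, share 0.7), scaled by TMM and fitted with edgeR 4.0.16 (R 4.3.3) over all 12 libraries, without covariates. glmTreat tested a log2 limit of 0.58 in 5 comparisons, with Benjamini-Hochberg adjustment over 19150 genes. SE came from the quasi-likelihood F. The scripts were tested on simulated data.

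Genes named are the 8 members, *Gbp2b*, *Gbp10* and *Gbp11*, and from each list the 4 largest 4 h changes called, those called in the other direction, and *Irf1*, *Ifng*, *Ifnb1*, *Casp4* and *Tlr4*, with the 5 genes nearest to *Gbp2* and to the members' median. Genes called before 4 h, *Pdlim5* and *Kyat3* were named after their values were seen, and 1 gene of the rule is not reported here. The members, lists, motifs and sequence comparisons were chosen with earlier results of these data known. The p-values set a change against the spread between pools of a group, 3 per group. That spread was estimated in 1 fit over all 12 libraries, with information shared between genes. Counting limits cover counting error only. Alternatives were DESeq2 1.42.0 (local dispersion trend), limma on the deposited signal (pseudocounts 1 and 10), other scalings, filters, fold limits, offsets and blocks, sums of related genes, and each library left out. Replicate numbers did not pair the libraries.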

Additional observations from a re-analysis of the deposited data

Results flagged for a closer look

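The changes against PBS differed between times by the direct edgeR tests of 1 time against another. *Gbp5* was the one member called against the 1.5-fold limit between 30 min and 15 min, higher by 0.95 on the log2 scale. In that direction 2.77% of all genes tested were called. With no fold limit *Gbp2* and *Gbp6* also passed as higher, against 19.2% of all genes, and *Gbp7* as lower, against 18.2%. Between 4 h and 30 min all 8 were called higher, where 17% of all genes tested were. *Gbp2* differed by 5.50, *Gbp3* by 4.33, *Gbp4* by 4.78, *Gbp5* by 4.71, *Gbp6* by 6.41, *Gbp7* by 4.03, *Gbp8* by 4.24 and *Gbp9* by 4.2. For *Gbp4*, *Gbp6*, *Gbp7*, *Gbp8* and *Gbp9* every 30 min library lay below the PBS range and every 4 h library above it. Of all genes tested, 23% were separated downward from PBS at 30 min and 35.9% upward at 4 h. The 30 min differences of these members were not called against the 1.5-fold limit. Groups of 3 libraries were not searched for outliers.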

How the results depend on the processing

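At 4 h all 8 GBP genes remained called higher under each of the 13 other settings and with each library left out. *Gbp5* remained the member called at 30 min except where a log2 change beyond 1.5 was also required. That limit left 0 of 8 at 30 min against PBS and 0 against 15 min. Over the 13 settings the *Gbp5* change at 30 min was 0.99 to 1.15, and with a library left out 1.13 to 1.18. The chromosome 3 sum, which pools *Gbp5* with its neighbours, was not called at 30 min. The smallest changes at 4 h came from scaling by library size only (*Gbp2* 5.29, *Gbp9* 3.04), which moved the median of all genes by -0.70 at 4 h, by -0.16 at 30 min, by -0.54 between 30 min and 4 h and by -0.14 between 15 and 30 min. It took the share of higher calls among all calls from 58% to 18.2% at 4 h, from 82.4% to 60.8% at 30 min, from 58.8% to 21.7% between 30 min and 4 h and from 58.2% to 37.1% between 15 and 30 min. Limma plus 1 and plus 10 put the last share at 69% and 69.5%. No member changed direction with the scaling.

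With no fold limit the test called 7 members at 15 min, 8 at 30 min and 4 between these times. Of the 19150 genes tested it called 7393 at 15 min, 7066 at 30 min, 7153 between these times and 13124 at 4 h. The lists held 18 GTPases, 19 interferon signaling genes, 20 LPS sensing genes (prenyl transferase genes included) and 21 flanking genes that were tested. For the interferon-inducible GTPases it called 11 at 15 min and 11 at 30 min, for interferon signaling genes 9 and 13, for LPS sensing genes 11 and 12, and for flanking genes 9, 10 and, at 4 h, 17. A fold change beyond 1.5 added to that test left 3 and 6 GTPases, 1 and 3 interferon signaling genes, 4 LPS sensing genes at 15 min and 1 flanking gene at 15 min. Of all genes it left 2286 at 15 min and 2064 at 30 min. A log2 limit of 1.5 left 0 GTPases at 15 and at 30 min, 8 LPS sensing genes at 4 h, and 0 and 3 flanking genes at 30 min and 4 h. Of all genes that limit left 168 at 15 min, 372 at 30 min and 2858 at 4 h. The GTPase called at 15 min was lost (0) with both DESeq2 fits, with limma at either pseudocount, and in the fit on 2 groups. At 30 min both DESeq2 fits, limma, library size only and the length offset each called 1 GTPase. With a library left out GTPase calls ranged from 0 to 1 at 15 min and from 1 to 2 at 30 min. Flanking genes called at 30 min fell to 0 with the length offset and with limma, and ranged from 0 to 1 with a library left out (0 without the first PBS or the first 30 min library). At 15 min 1 flanking gene was called without the filter and 1 in the fit on 2 groups.

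Small differences changed sign. Between 15 and 30 min *Gbp4* was at 0.072 with the length offset, 0.085 with limma plus 1 and 0.085 with limma plus 10. With 1 library left out *Gbp4* ranged from -0.13 to 0.045 and *Gbp3* from -0.083 to 0.019 in that comparison, and *Gbp7* at 15 min ranged from -0.12 to 0.042. The cause of these sign changes was not tested. The chromosome 3 sum was at 0.17 at 15 min, 0.46 at 30 min and 0.29 between them, and the chromosome 5 sum at -0.015 between them. These are changes of the summed fragments and not estimates for *Gbp7*, *Gbp3* or *Gbp6*, whose own differences there had the other sign. The sum with Gm43302 was chosen after the data were seen, as was the trend of DESeq2: its parametric dispersion trend on all genes was at the edge of convergence, so a local trend was set, and a parametric trend on the filtered genes called as many genes of the members and lists as the local one at 15 and 30 min and 661 against 702 of all genes at 30 min.

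Replicate numbers gave no pairing: the 18 correlations of same-numbered libraries were -0.067 to 0.052. With the replicate block 8 members were called at 4 h, 1 at 30 min and 0 at 15 min, as without it. *Gbp8*, with 111 to 216 fragments a library before 4 h, had the widest SE of the members.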
